A study of Mus musculus with 4 samples.

Results

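The 34 genes described here are type I interferon response genes: transcription factors of the interferon response, sensors of foreign RNA and DNA, and the antiviral effectors that both induce. They were taken by symbol from a list chosen with earlier results of these data known. All 34 were among the 52636 genes of the count tables. They were measured in epithelial cells of the mouse mammary gland, sorted for the surface protein EpCAM and profiled cell by cell in droplets by sequencing the 3′ ends of transcripts, so that each unique molecular identifier (UMI) stands for 1 captured transcript whatever its length. All mice were 6 months old, carried pellets releasing estradiol and progesterone, and were dosed by mouth each day for 4 days. Their Esr1 gene, which encodes the estrogen receptor, was wild type or carried the Y541S mutation, and the dose was vehicle or 30 mg/kg giredestrant, an antagonist and degrader of that receptor. Each of the 4 combinations has 1 library, in which the labels do not give the number of animals, so no test between groups exists and every interval below covers counting error only. Nor do the labels name a promoter or Cre, or say which cells of the gland carry the mutation.

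Type I interferons are secreted proteins that bind the receptor pair Ifnar1 and Ifnar2 on almost any cell. The kinases Jak1 and Tyk2 then activate Stat2, which joins Irf9 in a complex that binds an interferon-stimulated response element (ISRE) in the promoters of target genes. Several targets, such as Irf7, Stat2 and Irf9, belong to this machinery themselves, and others, such as Usp18, dampen it. Irf1 is turned on by interferon gamma as well as by type I interferon, and the guanylate-binding proteins Gbp2 and Gbp3 also respond to both.

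The letters of that element stood near the start site of many members. Promoters from 250 bases before to 50 after the start site were read from RefSeq (build GRCm38.p6) and matched by symbol for 25 of the 34. The ISRE core, GAAA and GAAA with any 2 bases between them, was searched on both strands. It occurred in 14 of the 25 (56.0%), against 3.99% of 27025 genes with promoters of the same length. For Ifih1, Ddx58 and Ifitm3 no match lay wholly before the start site. The longer form, the core followed by CT, occurred in 9 (36.0%), against 0.303%. The estrogen response element, GGTCA and TGACC with any 3 bases between them, occurred in 0, against 0.0740%. A match describes letters and shows no binding. The 250 bases before the start of Isg15, the ubiquitin-like protein joined to other proteins in the response, are shown because they hold 3 overlapping matches, with the core in capitals, 5′ to 3′ on the strand of the gene.
Isg15, chr4:156200819-156201068, minus strand: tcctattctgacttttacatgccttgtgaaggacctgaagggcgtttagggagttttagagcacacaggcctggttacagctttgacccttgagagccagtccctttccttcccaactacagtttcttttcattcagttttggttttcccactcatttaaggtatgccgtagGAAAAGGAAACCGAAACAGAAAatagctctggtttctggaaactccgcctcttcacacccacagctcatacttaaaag
The stretches below hold the core in front of members that behaved differently. Stat2, Ifit3 and Gbp2 were higher with giredestrant in wild-type hormone-sensing cells, whereas Bst2 and Rsad2 were lower. For Rsad2, 87.0% of the vehicle UMIs lay in 10 cells. Capitals mark the core on either strand.
Stat2, chr10:128270261-128270300, plus strand: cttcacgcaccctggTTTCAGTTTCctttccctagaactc
Ifit3, chr19:34583392-34583431, plus strand: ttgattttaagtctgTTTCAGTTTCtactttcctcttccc
Gbp2, chr3:142620589-142620628, plus strand: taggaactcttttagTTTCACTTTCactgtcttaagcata
Bst2, chr8:71537572-71537611, minus strand: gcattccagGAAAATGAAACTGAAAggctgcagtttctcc
Rsad2, chr12:26456548-26456587, minus strand: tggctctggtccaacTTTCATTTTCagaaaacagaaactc
The 40 bases shown for Ifit3 are the same letters as those of its near-identical neighbour Ifit3b, and reads of this pair may have been divided between them or lost in counting.

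A filter on cells asked for at least 1000 UMIs and 500 genes and allowed up to 15% of UMIs from mitochondrial genes. It passed 7082 wild-type vehicle, 3029 wild-type giredestrant, 7217 Y541S vehicle and 8622 Y541S giredestrant cells. Their median UMIs were 10868, 21927, 15290 and 6267 in that order, the order in which 4 levels are given throughout. Cell classes were cut from marker scores: hormone-sensing luminal cells by Esr1, Prlr, Areg and Foxa1, secretory luminal cells by Wfdc18, Csn3, Elf5 and Kit, and basal cells by Acta2, Myh11, Mylk and Tagln. Hormone-sensing cells with little Krt14, a basal keratin, numbered 627, 1034, 2074 and 1499, and are the hormone-sensing cells meant below. Those with more Krt14 numbered 15, 9, 22 and 980. Secretory cells numbered 680, 607, 1553 and 1330, and basal cells 4832, 998, 2951 and 3641. The source label names mature luminal cells, yet basal cells were the largest class in 3 of the 4 libraries. Between 10 and 29 cell barcodes were shared by any 2 libraries. UMIs were summed over a class and written as counts per 1000000 UMIs (CPM), and ratios of 2 libraries as log2 relative to the median gene of the same comparison, so that 0 means a change like that of the median gene. That median moved by 0.44 on the log2 scale with giredestrant in wild-type and by 0.34 in Y541S hormone-sensing cells, and by at most 0.15 with giredestrant in secretory and basal cells. A member was called higher or lower from a 1.5-fold relative difference, if the 2 libraries held 20 or more of its UMIs together.

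Members were at their highest in the wild-type giredestrant library in each luminal class and mostly so in basal cells. That library held the highest of the 4 levels for 30 of 34 members in hormone-sensing, 29 in secretory and 21 in basal cells. The exceptions in hormone-sensing cells were Bst2, Rsad2 and Cmpk2, highest with wild-type vehicle, and Mx2, highest with Y541S giredestrant. These counts rest on CPM, which are not relative to the median gene. The median gene itself was higher by log2 0.44 in hormone-sensing, 0.06 in secretory and 0.15 in basal cells with giredestrant in wild type. How often other genes were highest in the wild-type giredestrant library was not counted. How far these counts are particular to the members is therefore not known. Summed without Ifitm3, which alone outweighs the rest in basal cells, the other 33 members came to 613, 1139, 569 and 484 CPM in hormone-sensing cells. The sums were 462, 869, 619 and 540 CPM in secretory cells and 526, 838, 677 and 669 CPM in basal cells. With Ifitm3 included, the sums were 719, 1575, 751 and 831 CPM in hormone-sensing cells, 646, 1139, 862 and 614 CPM in secretory cells and 2626, 2457, 3073 and 2067 CPM in basal cells. The place of the Y541S giredestrant library thus turned with Ifitm3: without it, its sum was the lowest of the 4 in hormone-sensing cells alone, and with it, in secretory and basal cells. The wild-type giredestrant library had the highest sum of both luminal classes either way, but with Ifitm3 not that of basal cells.

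**Figure D1:**
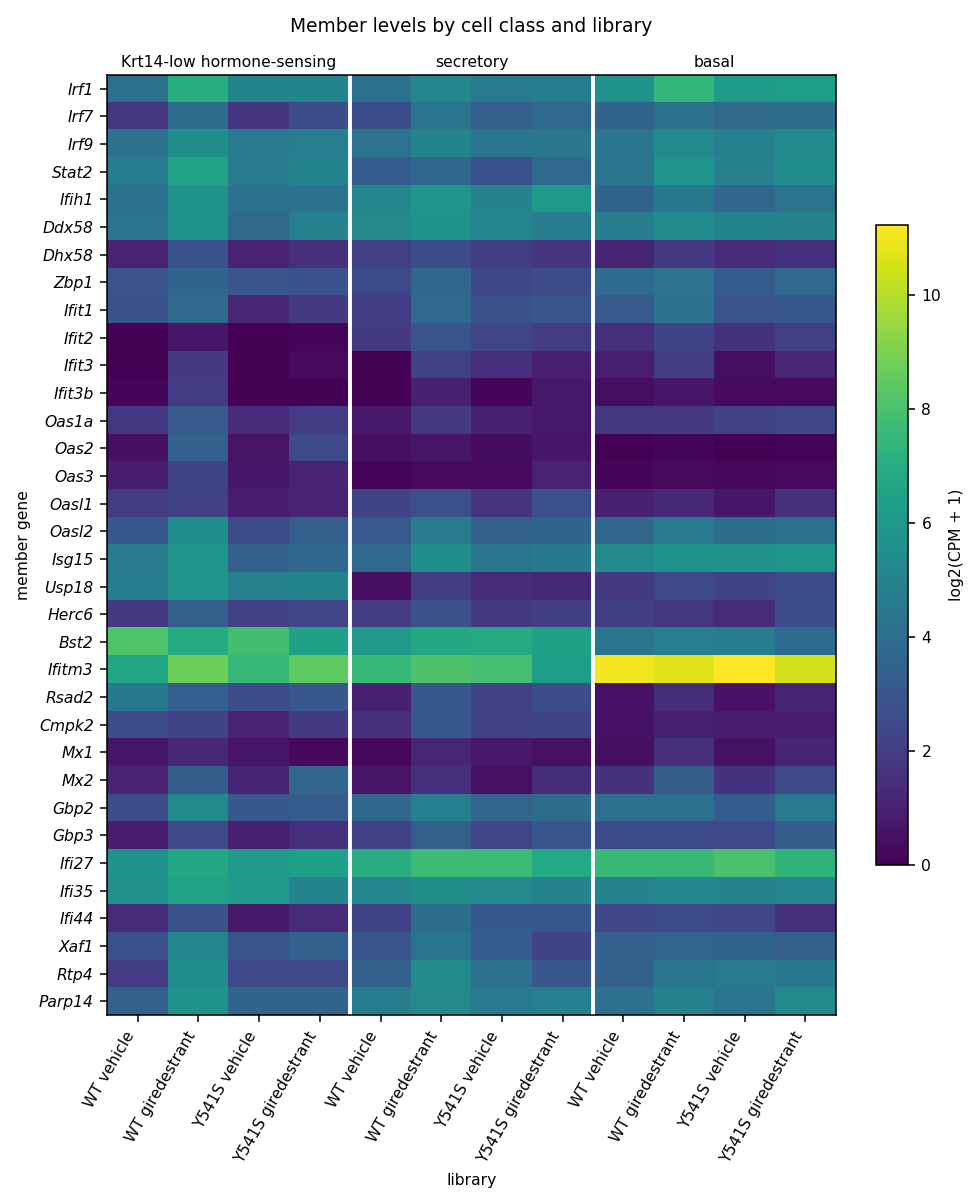
Level of each of the 34 members (rows) in 3 cell classes of the 4 libraries (columns), colour giving log2(CPM + 1). The wild-type giredestrant column is brightest for 30 of 34 members in Krt14-low hormone-sensing cells, and Ifitm3 stands out in basal cells.

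With giredestrant in wild-type hormone-sensing cells, 27 of 34 members were called higher, where 22.2% of all tested genes were, and 3 lower, where 22.1% were. The median member stood at a relative log2 ratio of 1.46. In Y541S hormone-sensing cells 9 of 31 tested members were called higher against 23.1% of genes, and 3 lower against 24.2%, with a median of 0.12. Those called lower were Bst2, Ifi35 and Mx1, and Ifit2, Ifit3 and Ifit3b had too few UMIs there. The ratio to vehicle was larger in wild type than in Y541S for 26 of the 31 members tested in both, by a median of 1.26 on the log2 scale. The same count was not made over all genes, so how far it is particular to the members is not known. With 1 library per group, that difference between genotypes was not tested.

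All 4 transcription factors were called higher in wild-type hormone-sensing cells. Irf1 stood at 16.5, 133, 32.1 and 32.1 CPM, so that only the wild-type giredestrant library was far from the others. The relative log2 ratio of Irf1 was 2.57 (95% interval 2.41 to 2.74) in wild type, and in Y541S it was -0.34. Stat2, a subunit of the complex that binds the ISRE, stood at 26.1, 94.2, 23.5 and 32.5 CPM, with ratios of 1.41 and 0.12. Irf9, its DNA-binding partner, stood at 17.8, 44.2, 24.5 and 26.7 CPM, with ratios of 0.87 and -0.22. Irf7, which amplifies interferon production, stood at 2.40, 14.6, 2.35 and 5.27 CPM, and it was called higher in both genotypes, at 2.16 and 0.82.

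Of the 4 sensors, 3 were called higher in the wild type. Ifih1 (MDA5), a sensor of long double-stranded RNA, stood at 17.1, 54.1, 17.1 and 17.9 CPM. Ddx58 (RIG-I), which detects RNA ends, stood at 18.8, 53.0, 13.9 and 28.9 CPM, and Dhx58, their regulator, at 1.18, 6.04, 1.10 and 1.99 CPM. Ddx58 was called higher in Y541S too, at 0.71, while Ifih1 was at -0.27. Zbp1, a sensor of Z-form nucleic acid, was not called in either genotype, at 0.42 and -0.57.

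The effectors with the largest ratios were low with vehicle. Rtp4, a regulator of the antiviral response, stood at 3.05, 43.0, 4.55 and 4.65 CPM, which gave relative log2 ratios of 3.38 for wild type and -0.31 for Y541S. Oas2, an enzyme whose product activates RNase L, stood at 0.374, 10.3, 0.513 and 4.72 CPM and was called higher in both genotypes, at 4.35 and 2.86. Mx2, a dynamin-like GTPase, followed the same course at 1.18, 8.79, 1.27 and 12.2 CPM, with ratios of 2.46 and 2.92. Oas2, Mx2 and Irf7 thus were high with giredestrant in both genotypes, unlike Rtp4. Oasl2 (7.26, 44.4, 5.12 and 9.56 CPM), Xaf1 (5.66, 34.5, 7.08 and 10.2 CPM), Gbp2 (5.29, 40.7, 7.37 and 8.75 CPM) and Parp14 (9.72, 52.2, 11.4 and 10.8 CPM) were called higher in wild type alone. Isg15 stood at 22.7, 55.2, 9.70 and 13.0 CPM, at 0.84 in wild type and 0.08 in Y541S. Ifitm3, a membrane protein that blocks virus entry, stood at 106, 436, 182 and 347 CPM, with ratios of 1.59 and 0.59, both called.

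Bst2 (tetherin), which holds budding virions at the cell surface, went the other way in both genotypes. It stood at 278, 120.0, 225 and 83.6 CPM in hormone-sensing cells, so both vehicle libraries lay above both giredestrant libraries. The relative ratio on the log2 scale was -1.65 (-1.71 to -1.60) for wild type and -1.77 for Y541S. The 10 cells with most Bst2 held between 3.0% and 11.3% of its UMIs per library, so the levels rest on many cells. In secretory cells Bst2 stood at 65.7, 109.5, 114.7 and 84.8 CPM, with ratios of 0.68 and -0.44. The low level with giredestrant in wild type was seen in hormone-sensing but not in secretory cells of the same library.

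**Figure D2:**
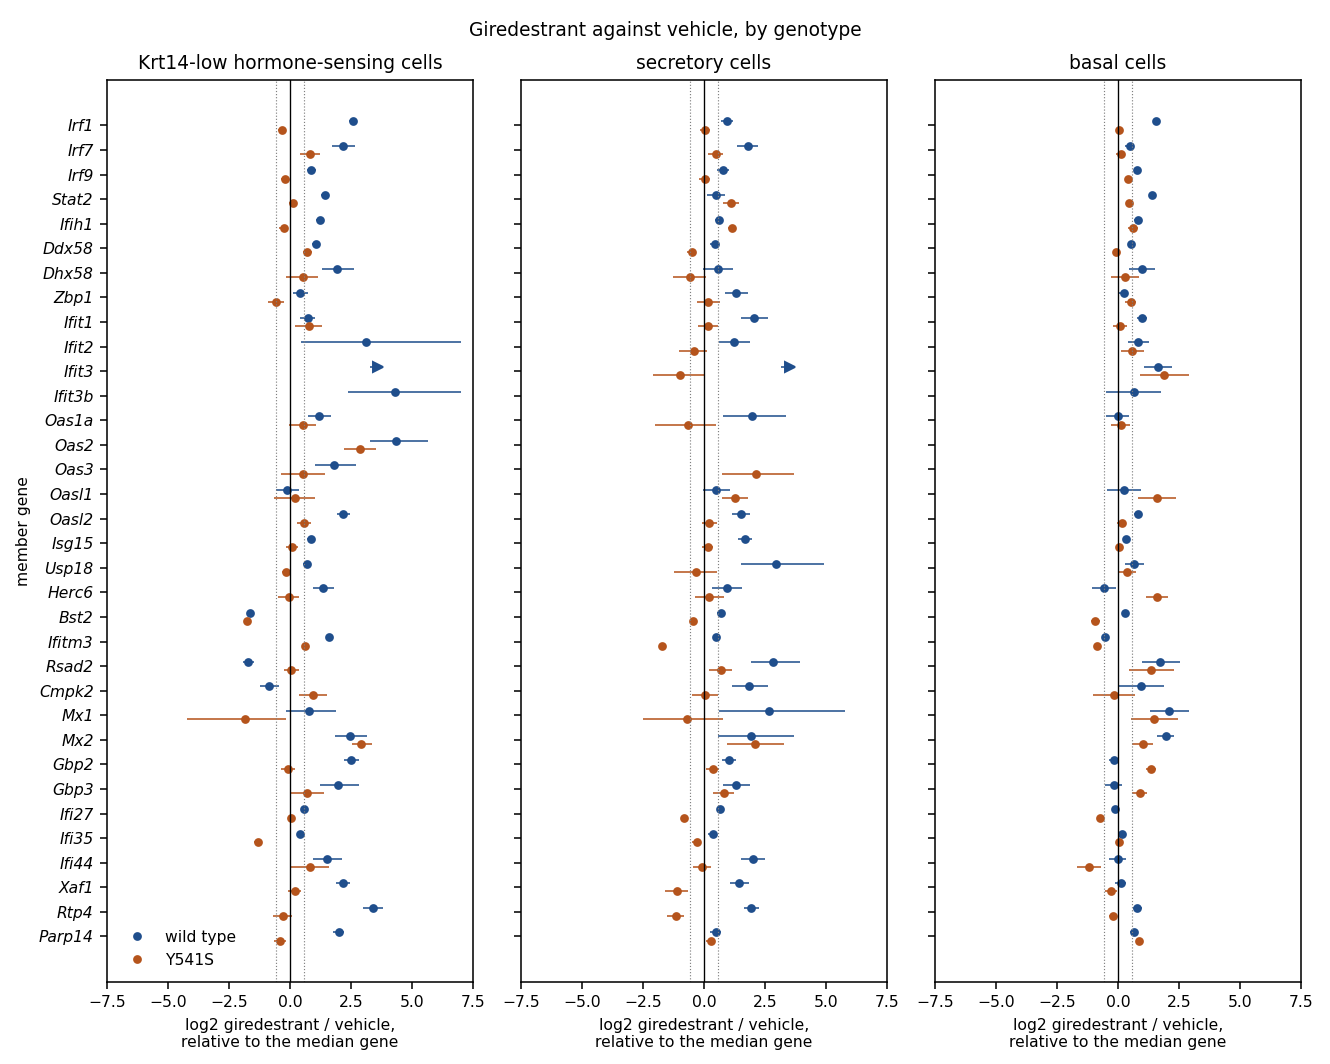
Log2 ratio of giredestrant to vehicle relative to the median gene (x axis) for each member (rows) in 3 cell classes, wild type in blue and Y541S in orange, with 95% counting intervals (drawn no further than 7), triangles for lower bounds and dotted lines at 1.5-fold. In Krt14-low hormone-sensing cells most wild-type points lie right of those of Y541S, and Bst2 lies left of 0 in both genotypes.

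A few cells carried nearly all transcripts of some members. In wild-type vehicle hormone-sensing cells, Ifit1, which binds foreign RNA ends, had 111 UMIs, of which 78 came from 1 cell and the rest from 9 others. The 10 cells with most held 87.0% of the UMIs of Rsad2 (viperin), 87.9% of those of Cmpk2, its neighbour and partner enzyme, and 69.9% of those of Isg15. In Y541S giredestrant cells 1 cell held 105 of the 118 UMIs of Rsad2. The 95 UMIs of Ifit3 in wild-type giredestrant cells came from 9 of 1034 cells, against 0 UMIs with vehicle (at least 3.62 on the log2 scale, taking a floor of 3 counts). Irf1, Stat2 and Rtp4 were spread widely there: they had UMIs in 777, 788 and 485 of the 1034 cells, and their 10 top cells held 9.2%, 7.1% and 10.0%. Rtp4 in the wild-type vehicle library had UMIs in 26 of 627 cells.

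Some ratios differed without these few cells. Rsad2 was called lower with giredestrant in wild-type hormone-sensing cells, at -1.71, with levels of 22.2, 9.24, 5.56 and 7.32 CPM, and Cmpk2 likewise at -0.85, with 5.29, 3.99, 1.12 and 2.73 CPM. When the 1% of cells with most member UMIs was left out of every class and library, a choice made after seeing the data, Rsad2 moved to -0.91 and Cmpk2 to 0.21, while Irf1 stood at 2.67, Stat2 at 1.45 and Bst2 at -1.73. Isg15 moved from 0.84 to 1.45 in wild type and from 0.08 to -0.72 in Y541S. The median member was then at 1.62 in wild type and at -0.06 in Y541S, with 24 members called higher in wild type. Many of the transcripts in question lay in cells with weak class scores: among wild-type vehicle cells, the 92 with a hormone-sensing score of 10 to 20 UMIs per 10000 had 96.5 CPM of Rsad2, and the 535 with a higher score had 10.5 CPM. Bst2 differed less between these, at 322 and 271 CPM. In the wild-type giredestrant library, the 1025 cells with a score of 20 or more had 9.26 CPM of Rsad2 and 120.3 CPM of Bst2. Among cells with such scores, Rsad2 thus was close in CPM to its vehicle level, while Bst2 was lower. These CPM are not relative to the median gene, which moved by 0.44 on the log2 scale over all hormone-sensing cells of this comparison. A relative ratio was not computed for cells chosen by score.

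**Figure D3:**
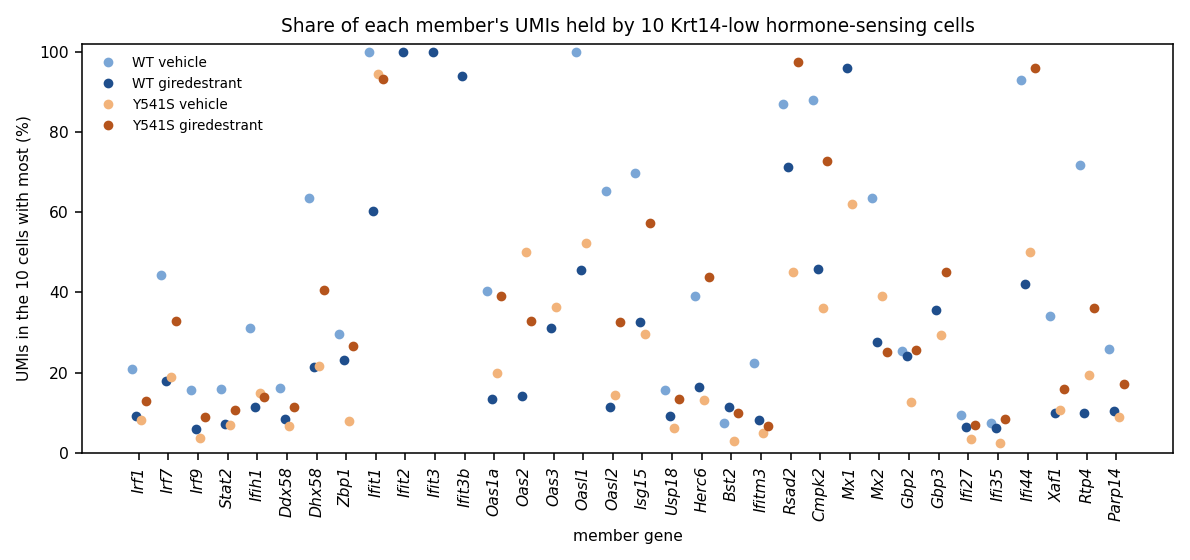
Share of a member's UMIs (y axis, percent) held by the 10 Krt14-low hormone-sensing cells with most of them, for each member with 20 or more UMIs in a library, coloured by library. Ifit1, Rsad2, Cmpk2 and Ifi44 sit high in several libraries, and Irf9, Ifi27 and Ifi35 stay below 20%.

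Member UMIs were also counted cell by cell. Cells were thinned to 3000 UMIs to give every cell the same depth, and UMIs of the 33 members other than Ifitm3 were added per cell. Shallower cells were left out, so depth still chose the cells. With Y541S giredestrant, 147 of 1499 hormone-sensing, 224 of 1330 secretory and 677 of 3641 basal cells were left out. With wild-type vehicle, 9 of 627, 40 of 680 and 79 of 4832 were. In hormone-sensing cells, 6.63%, 23.4%, 5.08% and 3.48% held 5 or more member UMIs, and 25.1%, 10.9%, 24.2% and 32.0% held 0. In secretory cells 3.91%, 15.5%, 7.22% and 4.97% held 5 or more, and in basal cells 5.91%, 13.5%, 10.2% and 9.72%. The wild-type giredestrant library thus had the largest share of such cells in all 3 classes. Irf1 was seen in 4.69% (3.17 to 6.67, exact binomial), 27.4% (24.7 to 30.2), 7.89% and 9.25% of thinned hormone-sensing cells, and in 26.3%, 75.1%, 39.4% and 21.4% unthinned. Isg15 was seen in 2.91%, 9.69%, 1.87% and 2.15% of them, against 53.7%, 57.9%, 50% and 41.4% of the 10 to 41 endothelial cells per library deep enough to thin. No class here lacks these genes outright, and the part of free RNA in shares this low was not tested.

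**Figure D4:**
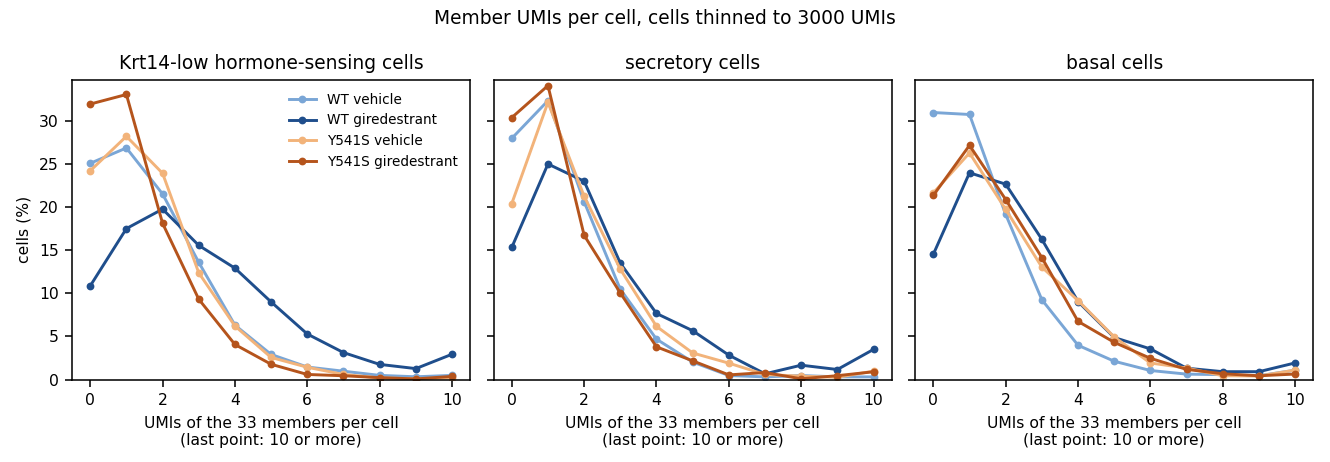
Percent of cells (y axis) by the number of UMIs of the 33 members other than Ifitm3 (x axis, the last point pooling 10 or more) after thinning each cell to 3000 UMIs, by library, in 3 cell classes. Cells with fewer than 3000 UMIs were left out. The wild-type giredestrant line starts lowest at 0 UMIs in each class and lies above the others from 5 UMIs on in hormone-sensing cells.

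Secretory cells of the wild type showed the same direction. There 24 of 31 tested members were called higher with giredestrant, against 9.48% of genes, and 0 lower, against 10.7%, with a median of 1.31. In Y541S, 7 of 32 were called higher against 16.4%, and 8 lower against 18.4%, with a median of 0.04. Isg15 stood at 13.4, 44.6, 19.4 and 21.6 CPM (1.68 in wild type, 0.15 in Y541S). Rtp4 stood at 10.5, 41.5, 16.5 and 7.35 CPM, higher in wild type (1.93) and lower in Y541S (-1.17). Usp18, the protease that removes Isg15 and blocks the receptor, stood at 0.389, 3.15, 1.68 and 1.35 CPM, a ratio of 2.96 resting on 4 UMIs with vehicle. Rsad2, which was lower in wild-type hormone-sensing cells, was higher here at 2.84 (0.972, 7.24, 3.37 and 5.41 CPM), and without the 1% of cells with most member UMIs at 1.80. Ifitm3 was lower in Y541S at -1.72, with 184, 271, 243 and 73.9 CPM. The largest ratios in Y541S were those of Oas3 (2.14), Mx2 (2.07) and Oasl1 (1.27).

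Basal cells differed less. With giredestrant in wild type, 17 of 32 tested members were called higher against 14.8% of genes, and 0 lower against 14.3%, with a median of 0.67. In Y541S, 10 of 31 were called higher against 14.3%, and 4 lower against 12.1%, with a median of 0.30. Irf1 stood at 52.3, 170.5, 71.0 and 77.3 CPM (1.55 in wild type, 0.05 in Y541S) and Stat2 at 20.1, 58.8, 30.9 and 44.7 CPM (1.40 and 0.46). Both had their highest level in the wild-type giredestrant library, as in hormone-sensing cells. Isg15, at 37.8, 52.8, 50.7 and 55.2 CPM, was not called in either genotype. Mx1, an antiviral GTPase like Mx2, was called higher in both genotypes (0.397, 1.88, 0.417 and 1.22 CPM), and so was Mx2 (2.09, 9.06, 2.16 and 4.58 CPM). The members called lower in Y541S basal cells were Ifi44 (-1.17), Bst2 (-0.93), Ifitm3 (-0.85) and Ifi27 (-0.75). Gbp2, at 16.3, 16.1, 8.61 and 23.3 CPM, was called higher in Y541S alone, at 1.37.

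Among the Krt14-low hormone-sensing, secretory and basal classes, some members were highest in the same class of every library. Ifitm3 was highest in basal cells, from 1398 to 2396 CPM, with neither of the other 2 above 436 CPM. Outside these 3 classes it reached 980.4 CPM in Krt14-high hormone-sensing cells and 3192 CPM in the wild-type vehicle endothelial cells, more than in basal cells of that library. Usp18 was highest in Krt14-low hormone-sensing cells, from 25.8 to 56.1 CPM, with neither of the other 2 above 5.17 CPM. In the 980 Krt14-high cells of the Y541S giredestrant library it stood at 29.4 CPM, near the 32.1 CPM of the Krt14-low cells there. Rsad2 was also highest in the Krt14-low cells in this comparison of 3 classes, although its UMIs sat in few cells. Irf1, Zbp1 and Ifit1 were highest in basal cells of all 4 libraries, and Ifih1 and Oasl1 in secretory cells of all 4. For these the ranges of the classes over the libraries overlapped.

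**Figure D5:**
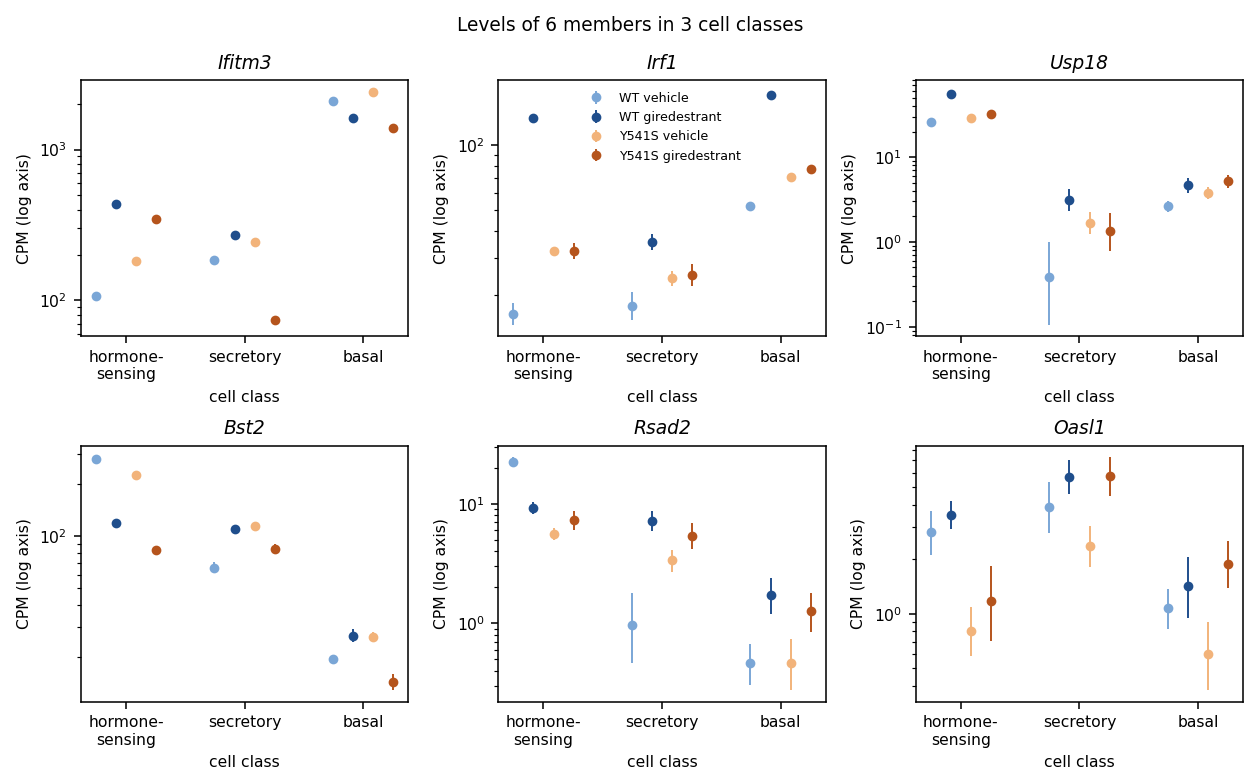
Level in CPM (log axis) of 6 members in Krt14-low hormone-sensing, secretory and basal cells of the 4 libraries, with exact Poisson 95% intervals. Ifitm3 lies between 1398 and 2396 CPM in basal cells and Usp18 between 25.8 and 56.1 CPM in hormone-sensing cells, both clear of the other 2 classes drawn.

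Between genotypes, the largest differences stood under giredestrant. These comparisons reuse the same 4 libraries as those above. In hormone-sensing cells under vehicle, 2 of 31 tested members were called higher in Y541S, against 11.7% of genes, and 8 lower, against 11.4%, with a median of -0.13. Those called higher were Irf1 (0.84) and Ifitm3 (0.65). Among those lower were Cmpk2 (-2.37), Ifit1 (-2.31), Rsad2 (-2.13) and Isg15 (-1.35), 4 members whose wild-type vehicle UMIs lay mostly in 10 cells. Without the 1% of cells with most member UMIs the counts were 4 higher and 5 lower. Under giredestrant, 0 of 34 members were called higher in Y541S, against 23.7%, and 28 lower, against 23.2%, with a median of -1.57. Lowest were Ifit3b (-5.52) and Ifit3 (-3.44), whose UMIs in the wild-type giredestrant library came from 16 and 9 cells. Rtp4 stood at -3.22, Parp14 at -2.29, Irf1 at -2.06 and Stat2 at -1.55. The members not called were Bst2, Ifitm3, Ifi27, Rsad2, Cmpk2 and Mx2.

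In secretory cells under vehicle, 13 of 30 tested members were called higher in Y541S, against 6.65% of genes, and 1 (Oasl1) lower, against 11.5%, with a median of 0.44. Without the 1% of cells with most member UMIs, 8 were higher and 2 lower. Bst2 (0.83) and Ifi27 (0.72), whose UMIs lay in many cells, were among the 13. Under giredestrant 0 of 32 were higher, against 16.8%, and 19 lower, against 18.2%, with a median of -0.82. In basal cells under vehicle, 4 of 32 were higher against 7.41%, and 9 were called in either direction against 19.4%, with a median of 0.18. Those higher were Rtp4 (23.6 against 10.2 CPM), Cmpk2 (0.98), Stat2 and Oas1a (both 0.62). Lowest were Ifit3 (-1.41), Herc6 (-0.96) and Gbp2 (-0.93). Under giredestrant 4 of 31 were higher against 16.5%, and 6 lower against 16.5%, with a median of -0.14. Herc6 stood highest at 1.24, and Ifit1 (-1.17), Ifi44 (-1.16) and Ifit3 (-1.15) lowest.

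The Y541S giredestrant library held 980 hormone-sensing cells with high Krt14, and the other 3 libraries held 15, 9 and 22, too few to compare gene by gene. Within the Y541S giredestrant library, 3 of 30 tested members were called higher in Krt14-high than in Krt14-low hormone-sensing cells, against 20.9% of genes, and 10 lower, against 20.2%, with a median of -0.31. Ifitm3, which is high in basal cells, stood at 980.4 CPM in Krt14-high and 347 CPM in Krt14-low cells, a relative log2 ratio of 1.76 (1.71 to 1.81). The other 2 called higher were Gbp2 (0.62) and Oas3 (0.75). Oas2 (0.671 against 4.72 CPM, -2.55) and Mx2 (3.24 against 12.2 CPM, -1.65) were lower in the Krt14-high cells. Both were among the 8 members called higher with giredestrant in Krt14-low cells of both genotypes. Of the other 6, Ddx58 (-0.64, -0.93 to -0.36) and Ifit1 (-0.68, -1.70 to 0.24) were also called lower in the Krt14-high cells. Irf7, Gbp3 and Ifi44 were not called and Ifitm3 was higher. The intervals of Oas3 and Ifit1 include 0. In the comparisons across libraries that use these small cell numbers, 6 of 10 members were higher and 1 lower with giredestrant in wild type (backgrounds 21.7% and 20.6%), and 3 of 19 higher and 5 lower in Y541S (26.2% and 25.7%). For genotype, 3 of 6 were higher and 0 lower under vehicle (16.3% and 15.8%), and 1 of 20 higher and 14 lower under giredestrant (26.9% and 26.5%).

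Of 11 interferon genes listed, 1 had more than 9 UMIs in a library. Ifnk, which encodes the type I interferon kappa of epithelia, had 4, 2, 4 and 137 UMIs over all kept cells. The 137 UMIs of the Y541S giredestrant library came from 75 of 8622 cells. In its Krt14-high hormone-sensing cells Ifnk had 95 UMIs in 48 of 980 cells, or 10.6 CPM (8.59 to 13.0), with at most 10 UMIs in 1 cell. In its Krt14-low cells it had 31 UMIs in 17 of 1499 cells, or 1.92 CPM, against 0.0534, 0 and 0.0367 CPM in the Krt14-low cells of the other libraries, where the 0 of wild-type giredestrant cells allows up to 0.0843 CPM (3 counts). Secretory and basal cells of the same library held 1 and 2 UMIs. Ifnb1, Ifna1, Ifna2, Ifna4, Ifna5 and Ifnl2 had 0 UMIs in every library, and the other ligands had at most 9. Those 9 were of Ifnl3, in 7 cells of the Y541S vehicle library. All UMIs of Ifnl3, which were 0, 2, 9 and 3, lay in Krt14-low hormone-sensing cells.

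The receptor and kinases of type I interferon were not called in hormone-sensing cells. Relative log2 ratios with giredestrant in wild type were -0.10 for Ifnar1, -0.02 for Ifnar2, -0.13 for Jak1 and 0.14 for Tyk2. Of the other receptor and kinase genes listed, Jak2 (-1.77) and Ifngr1 (-0.96), a kinase and a receptor chain of interferon gamma signalling, were called lower in wild type. No receptor or kinase gene of the list was called in Y541S. A list of 51 other type I targets was also chosen with earlier results of these data known. Of these, 29 of 44 tested were called higher and 4 lower in wild type, against 22.2% and 22.1% of all genes. Their median was 1.21. In Y541S 11 of 42 were higher and 8 lower, shares near the 23.1% and 24.2% of all genes, with a median of 0.11. The highest in wild type was Sp100, a nuclear body protein, at 0.320, 10.7, 1.01 and 1.99 CPM. The lowest was Isg20, an RNA exonuclease, at 167, 40.1, 145 and 135 CPM and -2.50. Like Bst2, Isg20 had a high level with vehicle, but it was not called in Y541S, at -0.45.

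Genes that lean to interferon gamma were counted in the same way. With giredestrant in Y541S hormone-sensing cells 2 of 19 were called higher, against 23.1% of all genes, and 11 lower, against 24.2% (median -0.80). Cxcl10, a chemokine for T cells, stood at 15.6, 16.3, 14.3 and 1.61 CPM, low in 1 library. In Y541S basal cells 17 of 22 were called higher, against 14.3%, and 0 lower, against 12.1% (median 0.94), with Cxcl9 at 2.78. Wild-type hormone-sensing cells had 9 of 19 higher, against 22.2%, and 5 lower, a share near the 22.1% of all genes (median 0.58). The difference between classes was not tested.

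Transcripts of other cell types were present in the class sums. The 9 macrophage and dendritic cell markers summed to 10.5, 38.6, 6.62 and 8.32 CPM in hormone-sensing cells, to 24.7, 56.3, 13.7 and 59.0 CPM in secretory cells, and to 86.4, 160.1, 59.1 and 163 CPM in basal cells. All 9 had UMIs in the hormone-sensing cells of 3 libraries, and all but Ptprc in those of the Y541S giredestrant library. Of the list Cd74 and H2-Aa are themselves responsive to interferon gamma. The 5 endothelial markers summed to 8.49, 21.3, 10.1 and 31.7 CPM in hormone-sensing cells, with Kdr at 0 in all but the wild-type vehicle library. T and NK cell markers came to at most 1.47 CPM there, with Nkg7 at 0 in all 4 libraries, and fibroblast markers to 83.4, 25.9, 137 and 7.20 CPM. The macrophage sum thus was highest in the library where the members were highest in hormone-sensing cells, and the part of such transcripts in the members' levels was not tested. Endothelial cells carried more of the members per transcript than the epithelial classes. The 33 members other than Ifitm3 summed to between 3220 and 4957 CPM in endothelial cells, of which 13 to 57 were kept per library. In immune cells, of which 6 to 38 were kept per library, the same sums were 1805, 1152, 6847 and 1787 CPM. The 1152 CPM (985 to 1338) of the wild-type giredestrant library lay near the 1139 CPM of its hormone-sensing cells. Fibroblasts, with 34 to 50 cells per library, came to 2887, 2164, 4044 and 1040 CPM.

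Over the 12 sums of class and library, the genes outside the interferon lists whose CPM followed the median standardized level of the members most closely were Stx4a, Slc35b3, Cul5, Usp45 and Mapkbp1. Their Spearman correlations were 0.93, 0.88, 0.87, 0.86 and 0.85, the highest of 7822 genes ranked. The sums share libraries and classes, so these values describe the 12 points only. Stx4a ranged from 22.7 to 37.9 CPM and was highest in the wild-type giredestrant library in each class.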

How the data were processed

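Cells from 4 libraries, 1 for each genotype and treatment, were analysed from the deposited matrices of raw UMI counts, made with Cell Ranger 6.0.1 per the file headers. GRCm38 is the genome per the submitters' processing notes. The annotation release is not given in the sources used here. The deposited barcode and gene lists hold other text, namely identifiers and symbols. Cells meeting several epithelial classes were left out. Scores per 10000 UMIs had to reach 10 (hormone-sensing, secretory) or 20 (basal), with Krt14 split at 3. Doublets were not removed in the main version: Scrublet in Scanpy 1.11.5 marked 0.184% of wild-type vehicle cells, too few for a working call, and 0.726%, 3.38% and 3.26% of wild-type giredestrant, Y541S vehicle and Y541S giredestrant cells. Levels carry exact Poisson, ratios exact conditional binomial and shares exact Clopper-Pearson intervals at 95%. The ratio step was tested on simulated counts. Cells are not replicates, and no p-value was computed.

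Members were named from the 10 with the highest mean CPM and the 3 most extreme in each direction per comparison and class. Not every such member is given. Other members, which show how few or many cells carried them, were chosen after their values were seen. Members and lists were chosen with earlier results of these data known. Alternatives changed the scaling (edgeR 4.0.16 TMM), the count filter, the class thresholds, the mitochondrial limit, the treatment of doublets and the thinning depth.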

Additional observations from a re-analysis of the deposited data

Results flagged for a closer look

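Giredestrant went with opposite calls in the 2 genotypes for some members, each given as the log2 ratio to vehicle relative to the median gene. These differences between genotypes were not tested, since each rests on single libraries. In Krt14-low hormone-sensing cells Cmpk2 stood at -0.85 in wild type and 0.94 in Y541S, and Mx1 at 0.79 and -1.86. The 10 cells with most Cmpk2 held 87.9% and 45.8% of its UMIs there with wild-type vehicle and giredestrant, and 36.1% and 72.7% with Y541S vehicle and giredestrant. Mx1 never passed 1.38 CPM. In Krt14-high hormone-sensing cells, with 9 to 22 cells in 3 of the libraries, Irf1 stood at 3.25 and -1.0 and Ifi27 at 0.84 and -0.89. In secretory cells Ifit3 stood at 3.52 (a lower bound) and -0.99, Oas1a at 1.96 and -0.67, Mx1 at 2.66 and -0.71, Ifi27 at 0.65 and -0.82, Xaf1 at 1.44 and -1.12, and Rtp4 at 1.93 and -1.17. Ifi27, Xaf1 and Rtp4 had UMIs in 42 or more secretory cells of every library.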

How the results depend on the processing

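Under 11 alternatives to the settings of the report, 400 of 438 medians, counts and shares were within their range of the main value. The other 38 moved and 0 were labelled reversed. That 0 does not show that directions held, since counts have no sign and small medians could change sign without the label. With class thresholds doubled, the median between genotypes under vehicle in hormone-sensing cells went from -0.13 to 0.13 and was labelled unchanged. With the highest Scrublet scores removed, the giredestrant median in Y541S Krt14-high cells went from 0.05 to -1.09 and was labelled moved. That setting left 4 such cells with vehicle. No paired analysis was possible because each group has 1 library and no replicate number. For giredestrant in wild-type hormone-sensing cells, doubling the class thresholds left 1 member lower instead of 3, and Cmpk2 turned from -0.85 to 0.70. Cmpk2 was 0.21 without the 1% of cells with most member UMIs, an alternative chosen after seeing the data. That alternative also gave 6 members lower instead of 3 in Y541S hormone-sensing cells, 4 higher and 5 lower between genotypes under vehicle, 8 higher and 2 lower between genotypes in secretory cells under vehicle, 1 lower with giredestrant in wild-type basal cells, and 3 lower between genotypes in basal cells under vehicle. Doubled thresholds gave 5 higher and 5 lower between genotypes in hormone-sensing cells under vehicle, and turned Ifit1 there from -2.31 to 0.54. Keeping cells of several classes gave 1 higher between genotypes under giredestrant in hormone-sensing cells. A minimum of 50 counts left 5 lower in Y541S secretory cells, no filter gave 1 higher between genotypes under giredestrant in secretory cells, and TMM gave 1 lower in wild-type basal cells. The share of basal cells with Isg15, wild-type giredestrant over vehicle, was 1.40, and 1.06 when thinned to 2000 UMIs.

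Krt14-high hormone-sensing cells gave the other values that moved. With giredestrant in wild type, 2 members were higher at a minimum of 50 counts, 24 with no filter and 10 with cells of several classes kept, and 2 were lower with the highest Scrublet scores removed. In Y541S the median was 0.53 with no filter and -1.09 with those scores removed, where 0.05 stood in the report. There 16 were higher with no filter, and 1 higher in each case with several classes kept, Scrublet scores removed or thresholds doubled, with 12, 12 and 11 lower. Between genotypes under vehicle 12 were higher and 2 lower with no filter, 10 higher with several classes kept, 1 higher with Scrublet scores removed, and 7 higher and 1 lower with thresholds doubled. Under giredestrant 4 were higher with no filter, and 2 with several classes kept, thresholds doubled or the 1% of cells left out. In Y541S, Xaf1 turned to -0.39 with several classes kept, -2.36 with Scrublet scores removed and -0.99 with thresholds doubled. Removing the highest Scrublet scores left 4 of the 22 Y541S vehicle and 916 of the 980 Y541S giredestrant Krt14-high cells. The median gene between them then moved by -1.24 on the log2 scale, against -0.09 in the main version. With these scores removed, Irf1 turned to 0.07, Gbp2 to -1.33, Ifi35 to 0.22 and Parp14 to -1.18. The cause was not tested in any of these.

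Depth limits the rare members most: Ifit2, Ifit3, Ifit3b, Oas2, Oas3 and Mx1 rest on few UMIs in many class sums, and the Y541S giredestrant library is the shallowest per cell.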
